A study of Mus musculus with 6 samples.

Results

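The endoplasmic reticulum folds and inspects secreted and membrane proteins, and 37 of its genes were followed here in C2C12 myoblasts, an established mouse line that can be made to form muscle fibres. They were taken by name as 13 chaperones and co-chaperones, 7 disulfide enzymes, 9 genes of the degradation of misfolded proteins, 5 stress sensors and regulators and 3 subunits of the translocon and the glycosylation machinery. A probe set is a group of short probes on the array that are read together as 1 signal, not always of a single transcript. All 37 genes had a probe set with exactly 1 gene in the platform annotation, out of 18193 genes so annotated. They had 87 such probe sets in all, and each gene is described by the one with the highest mean signal.

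The cells were of a line in which tetracycline switches on integrin alpha7, a laminin receptor subunit of skeletal muscle. They were held undifferentiated for 36 h in medium with 20% serum, and the groups were 3 arrays of cells without tetracycline (noninduced) and 3 of cells given 1 µg/ml tetracycline (induced). Both groups carried the construct, and cells without it were not analysed here, so an effect of the drug itself cannot be told apart from that of the induction. The labels do not say whether the line is 1 clone or which promoter drives the construct. The series calls the 3 samples of a condition biological replicates.

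Chaperones of the endoplasmic reticulum bind unfolded chains, protein disulfide isomerases form and reshuffle their disulfide bonds, and chains that stay misfolded are marked, drawn back through the membrane and destroyed by the proteasome. When unfolded proteins collect, the sensors Ire1 (gene Ern1), PERK (gene Eif2ak3) and Atf6 start the unfolded protein response. Ire1 splices the messenger RNA of the transcription factor Xbp1, Atf6 is cut to release another factor, and PERK slows translation and favours that of Atf4, which switches on Ddit3 and Trib3. Many chaperone and degradation genes are textbook targets of Atf6 and Xbp1, which act through a promoter sequence called the endoplasmic reticulum stress element. In muscle precursors this response is known to be active during differentiation.

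The stress element was searched for in the members' promoters, because it is the sequence through which the textbook targets of the response are reached. RefSeq promoters (GRCm38.p6, from 250 bases before to 50 bases after each start) were listed for 31 of the 37 genes, and the entries for Hyou1, Hspa13, Sil1, Manf, Derl1 and Atf6 were missing. The element, searched on both strands as CCAAT and CCACG with any 9 bases between them, was found in 9 of the 31 (29.0%), and in 37 of the 27025 genes of the whole table (0.137%). Since many of the members are textbook targets of the response, the gap between these shares follows in part from the choice of genes. A second form, searched on both strands as ATTGG and CCACG with any 1 base between them, was found in 2 members, Herpud1 and Dnajb11, and in 12 genes of the table (0.0444%). Both forms contain CCACG, which alone was present in 26 of the 31 members and in 35.5% of all genes. The members' elements before the start are printed with 6 bases on either side, as read along the strand that carries the match, with the match in capitals; they show what the 9 promoters have in common.
Hspa5 (chr2:34772025-34772043): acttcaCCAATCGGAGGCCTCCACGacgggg
Hsp90b1, nearer the start (chr10:86705533-86705551): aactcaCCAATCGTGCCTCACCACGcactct
Hsp90b1, farther out (chr10:86705638-86705656): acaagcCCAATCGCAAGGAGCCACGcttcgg
Calr (chr8:84847075-84847093): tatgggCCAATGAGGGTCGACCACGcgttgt
Canx (chr11:50325800-50325818): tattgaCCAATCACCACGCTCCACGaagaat
Dnajc3 (chr14:118937827-118937845): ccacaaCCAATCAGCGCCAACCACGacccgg
Creld2 (chr15:88819520-88819538): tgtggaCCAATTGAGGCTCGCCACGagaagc
Pdia6 (chr12:17266491-17266509): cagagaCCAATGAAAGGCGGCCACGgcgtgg
Syvn1 (chr19:6046532-6046550): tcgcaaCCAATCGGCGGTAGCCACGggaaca
Derl3 (chr10:75893242-75893260): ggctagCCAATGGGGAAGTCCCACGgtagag
Herpud1, second form (chr8:94386377-94386387): gcgctgATTGGGCCACGttggac
For Hsp90b1, Calr and Canx the gene lies on the minus strand, and in the rest on the plus strand. The match runs opposite to the gene in Calr, Creld2, Derl3 and the nearer element of Hsp90b1. The element ended between 26 bases (Syvn1) and 194 bases (the farther one of Hsp90b1) before the start. A match describes the letters of the promoter and does not show that a factor binds there.

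Each array gave a scaled signal for 45101 probe sets, with the same trimmed mean on every array and a median between 22.9 and 27.7. Fluidics runs were inferred from the hybridisation times in the instrument records, where a gap of over 30 minutes was taken to start a new run. This put the noninduced arrays together with induced replicate 1 into a first run, and the other induced arrays into a second. Every noninduced array was scanned ahead of every induced one, so the order of scanning and the condition cannot be told apart. Transcript of Itga7 itself was lower where induction was labelled (693 ± 29.9 against 792 ± 17.2, SD, n = 3 each; log2 -0.19, limma adjusted p = 0.178), against the direction of the label, and where its only probe set lies relative to the construct is not given in the sources used here. Directions below are therefore given for arrays labelled induced. Of 6 myoblast markers 5 were above the signal filter, all but Msc, and their summed signal was 5863 to 5990 on noninduced arrays and 5545 to 5821 on those labelled induced. Myod1 and Chrna1 were lower without overlap (log2 -0.17 and -0.12). Cdh15 was at -0.12, Des at 0.07 and Myf5 at 0.12, each with overlap. Markers of other cells were mostly dim. The brightest were Cd14 (means 171 and 166) and Acta1 (159 and 192, higher without overlap where induction was labelled, log2 0.25, limma adjusted p = 0.312). All other listed markers of differentiated muscle were below the filter, each with a lower mean where induction was labelled. Above the filter were 1 of 6 for differentiated muscle (Acta1), 4 of 6 for blood cells and macrophages and 1 of 6 for endothelium. So were 3 of 6 for epithelium and 1 of 5 for adipocytes, and no list had a member past the adjusted threshold. Their summed signals, noninduced and then labelled induced, were 235 to 260 and 208 to 260 for differentiated muscle, 307 to 344 and 273 to 310 for blood cells and macrophages, 52.8 to 79.8 and 51.9 to 64.4 for endothelium, 178 to 218 and 179 to 217 for epithelium, and 47.9 to 105 and 26.7 to 49.2 for adipocytes. The defining blood marker Ptprc was near 0, with means of 4.76 and 5.77. The 3′ to 5′ signal ratio was 0.788 to 0.802 on noninduced arrays and 0.761 to 0.782 on those labelled induced for Gapdh, and reached 1.11 and 1.14 for Actb. The part of marker levels, RNA quality and fluidics run in the differences that follow was not tested.

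No gene of the module passed the test over all probe sets, and the differences were small: all 37 lay within 1.5-fold, between -0.29 and 0.23 on the log2 scale. The test was limma on log2(signal + 16) with Benjamini-Hochberg adjustment over 22518 probe sets, of which 45 (0.2%) passed an adjusted p of 0.05, 27 higher (0.12%) and 18 lower (0.0799%). That total was 1 when noninduced replicate 2 was dropped, 2 for induced replicate 1, 9 for noninduced replicate 3 and 11 for induced replicate 2, and the module stayed at 0 each time. In limma, 14 of the 37 had an unadjusted p under 0.05, 11 of them lower and 3 higher on the arrays labelled induced, against 14.7% of all tested probe sets (7.27% lower and 7.41% higher). In bulk RNA, fewer cells of a kind and less RNA per cell cannot be told apart.

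The module leaned downwards more often than the array as a whole. The log2 fold change was negative in 24 of the 37 genes, against 52.6% of all tested probe sets, and the median was -0.08 against -0.01. The 3 noninduced and 3 induced values did not overlap in 16 of the 37 genes, 13 lower and 3 higher, against 20.3% of all tested probe sets (10.6% lower and 9.64% higher). The signs and counts moved with the scaling. With each array centred on its own median, the median of all tested probe sets moved to 0.08 and that of the module to 0.02, 17 genes were negative, and the genes without overlap were 1 lower and 8 higher, against 3.45% and 19.8% of all tested probe sets. Canx and Derl1 then passed the test, with limma adjusted p of 0.0263 and 0.0363. They were among 306 of all 22518 tested probe sets that passed after centring, against 45 with the deposited scaling. Quantile normalization gave 26 negative genes and 12 lower and 2 higher without overlap, against 10.1% and 9.91%. The distance of the module's median from that of all tested probe sets was -0.07 with the deposited scaling and -0.09 with quantile normalization. Centring shifts every log2 fold change by the same amount, so this distance could not change with it.

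**Figure D1:**
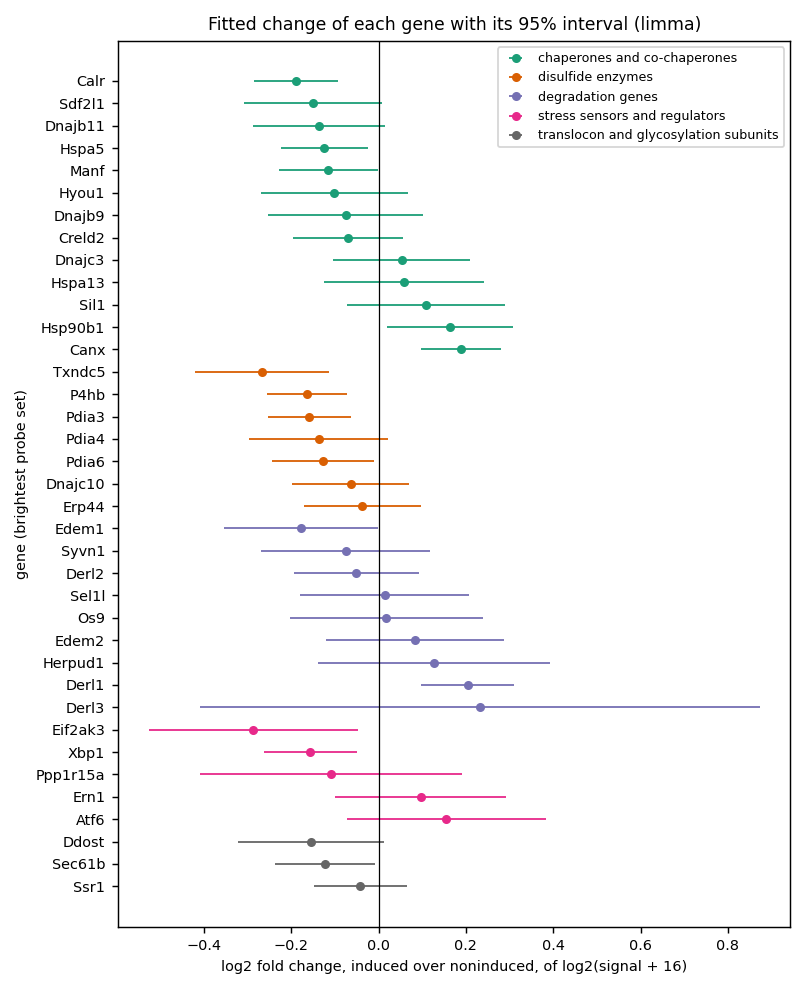
Fitted log2 fold change of each of the 37 genes (horizontal axis, arrays labelled induced over noninduced, on the log2(signal + 16) scale) with its 95% interval, grouped and coloured by role. All 7 disulfide enzymes lie left of 0, of which Erp44 and Dnajc10 move to the right of it after median centring; the chaperones run from Calr at -0.19 to Canx at 0.19, and Derl3 has the widest interval, from -0.41 to 0.87.

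Bright probe sets are measured with a smaller error, so the module was also set against probe sets of like signal. Of 13 genes with a mean signal of 1000 or more, 10 were negative, 7 lay lower without overlap and 2 higher, and the median was -0.12. Among all 2373 tested probe sets in that range the median was 0.00, and 16.4% lay lower and 14.3% higher without overlap. Of 18 genes between 200 and 1000, 12 were negative, with a median of -0.07 against 0.01 for the 6799 probe sets of that range. The 6 genes under 200 had a median of 0.09 against -0.03. These classes were set after the values were seen and describe the arrays without a test.

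The chaperones and co-chaperones went both ways. Of the 13, 8 were negative and 5 positive, with a median of -0.08 (0.02 after median centring), and 4 lay lower and 2 higher without overlap, against 10.6% and 9.64% of all tested probe sets. After median centring 0 lay lower and 4 higher, against 3.45% and 19.8%. Hspa5 encodes BiP, the Hsp70 chaperone of the compartment, which also holds the stress sensors inactive. It gave 5904, 6401 and 5887 on noninduced arrays 1 to 3 and 5361, 5596 and 5721 on those labelled induced. Every induced value was below every noninduced one, with a limma estimate of -0.12 in log2 (SE 0.046, adjusted p = 0.245). A second probe set of Hspa5 separated the groups in the opposite direction. It gave 3433, 3274 and 3362 and then 3802, 3836 and 3446, or 0.14 in log2 (SE 0.0498, limma adjusted p = 0.241). The dimmest of its 3 probe sets gave -0.07 with groups that overlapped, so the direction for Hspa5 differed between its probe sets.

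Hsp90b1 encodes Grp94, the Hsp90 chaperone of the compartment, and its promoter is the one with 2 stress elements above. It gave 3539, 2968 and 3436 on noninduced arrays and 3812, 3856 and 3457 on those labelled induced. The groups overlapped by a small margin, since induced replicate 3 lay just below noninduced replicate 1, and the log2 fold change was 0.16 (SE 0.066, limma adjusted p = 0.284). Its other probe set gave -0.09, so here too the probe sets disagreed.

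The partners that serve BiP were mixed. Dnajb11, a co-chaperone that hands substrates to BiP, gave 528, 595 and 532 against 476, 512 and 512, lower without overlap (log2 -0.14). Sdf2l1, a partner of Dnajb11, gave 344, 348 and 321 against 309, 294 and 306, also lower without overlap (log2 -0.15). Sil1, a nucleotide exchange factor for BiP, gave 206, 202 and 208 against 209, 229 and 231, higher without overlap (log2 0.11), although induced replicate 1 lay only just above the noninduced arrays and the groups overlapped after quantile normalization. Hyou1, the other exchange factor, was at -0.10, and its 3 probe sets were all negative, down to -0.33. Dnajb9, a co-chaperone strongly induced by Xbp1, was at -0.08, Dnajc3, an inhibitor of PERK, at 0.05 and Hspa13, a microsomal Hsp70, at 0.06, each with groups that overlapped. Other probe sets of Dnajc3 were at -0.15 and -0.25, both lower without overlap, and at -0.06 and 0.04 with overlap. Manf, a secreted stress-responsive factor, was at -0.12 and Creld2, a stress-induced protein of the compartment, at -0.07. In Manf, induced replicate 3 (2383) lay above noninduced replicate 2 (2349).

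**Figure D2:**
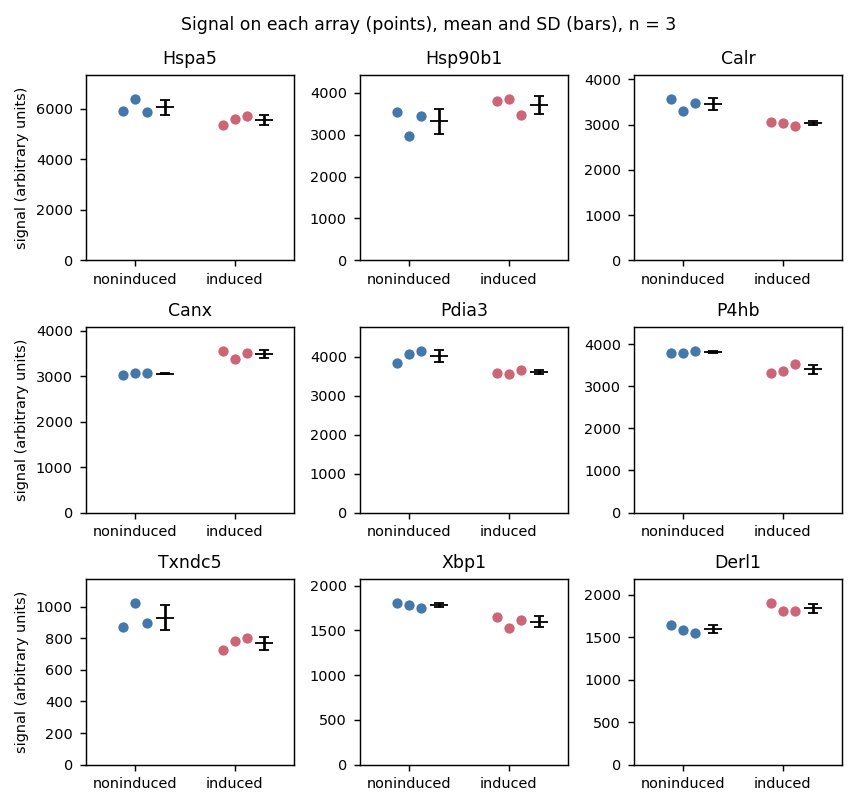
Signal on each of the 6 arrays (vertical axis, arbitrary scaled units from 0; points) with mean and SD (n = 3) for 9 genes, noninduced against labelled induced. Calr, Pdia3, P4hb, Txndc5, Xbp1 and Hspa5 are lower on all 3 induced arrays, Canx and Derl1 are higher, and Hsp90b1 overlaps; after median centring Txndc5 is the only one of these 9 genes that stays lower without overlap, and Hsp90b1 is higher without overlap.

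The lectin chaperones Calr and Canx, which bind the same sugar mark on folding glycoproteins, lay on opposite sides. Calr, the soluble form (calreticulin), gave 3572, 3312 and 3483 on noninduced arrays and 3066, 3038 and 2981 on those labelled induced. All 3 induced values were lower, with a log2 fold change of -0.19 (SE 0.0443, 95% interval -0.29 to -0.09, limma adjusted p = 0.101). Canx, the membrane-bound form (calnexin), gave 3036, 3064 and 3059.7 and then 3554, 3381 and 3513. All 3 induced values were higher, with a log2 fold change of 0.19 (SE 0.0417, 95% interval 0.10 to 0.28), and its adjusted p of 0.0904 in limma was the lowest among the 37. The log2 difference between Canx and Calr within an array, in which a scaling factor of the array all but cancels, was -0.23, -0.11 and -0.19 on noninduced arrays and 0.21, 0.15 and 0.24 on those labelled induced, a shift of 0.38. Canx was already higher and Calr lower without overlap with the deposited scaling. The separation of the groups in their difference follows from that and adds no further evidence. All 3 probe sets of Calr were negative (-0.21 to -0.05), whereas for Canx a second one gave 0.15 and the dimmest -0.13. Both promoters carry 1 stress element.

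The disulfide enzymes lay to one side of 0. All 7 were negative with the deposited scaling and with quantile normalization, and 5 of 7 after median centring, where Erp44 and Dnajc10 turned positive. Their median was -0.14, and 5 of 7 lay lower without overlap, against 10.6% of all tested probe sets. After median centring the median was -0.04 and 1 of 7 lay lower without overlap, against 3.45%. P4hb, the archetypal protein disulfide isomerase and a subunit of collagen prolyl hydroxylase, gave 3795, 3793 and 3840.3 against 3310.2, 3366 and 3524 (log2 -0.16, SE 0.0422, limma adjusted p = 0.121). Its noninduced values lay within a narrow band, and every induced value was below it. Pdia3, the isomerase that works with Calr and Canx, gave 3834, 4069.6 and 4143 against 3569, 3565 and 3651 (log2 -0.16, SE 0.0438, limma adjusted p = 0.146). Again the groups did not touch, and the induced arrays were close together.

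Txndc5, a thioredoxin-domain isomerase linked to collagen folding, had the largest difference of the group. It gave 869.6, 1022 and 898 on noninduced arrays and 724, 781 and 801 on those labelled induced (log2 -0.27, SE 0.0703, 95% interval -0.42 to -0.11, limma adjusted p = 0.127). It was the one gene of the module that still lay lower without overlap after median centring (log2 -0.17), and its other probe set gave 889, 873 and 915 against 767, 795 and 851 (log2 -0.15). Pdia6, an isomerase that also dampens Ire1, gave 1519.6, 1599 and 1624 against 1371, 1457 and 1513, a small gap (log2 -0.13). Pdia4 gave 322, 323 and 302 against 284, 293 and 279 (log2 -0.14). Erp44, which retains partly assembled proteins, was at -0.04 and Dnajc10, a reductase that serves degradation, at -0.06, and both overlapped. Every tested probe set of the 5 enzymes with more than 1 of them (Pdia3, Pdia6, Txndc5, Erp44 and Dnajc10) was negative with the deposited scaling.

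**Figure D3:**
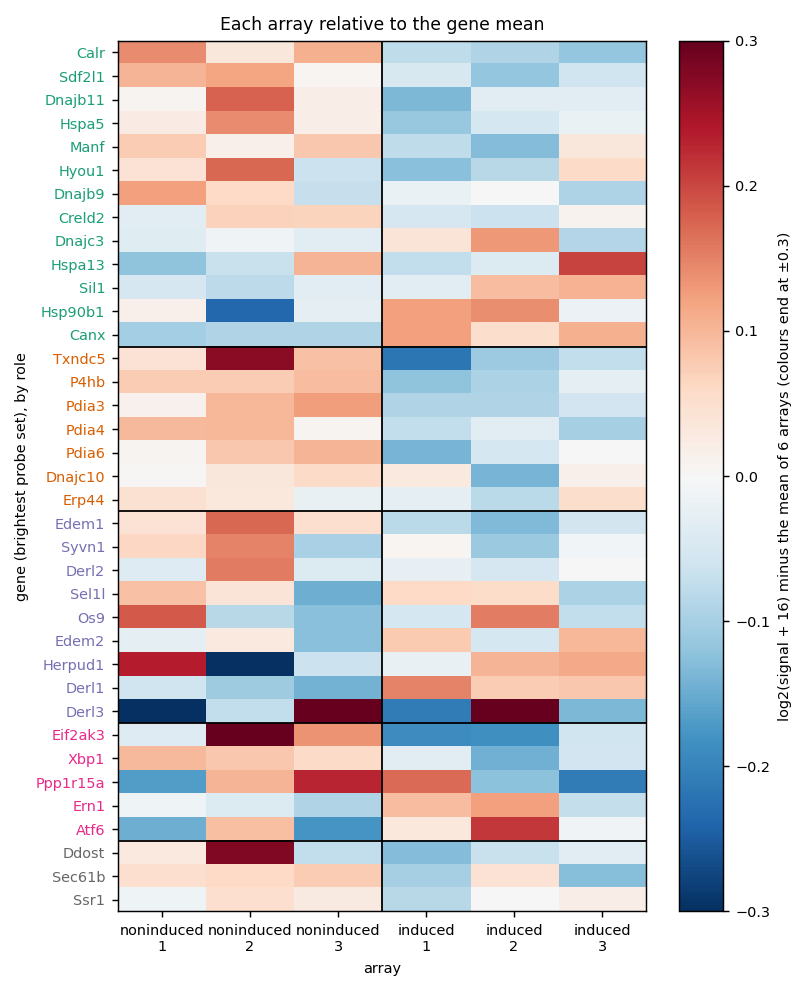
Each gene (rows, by role) on each array (columns) as its log2(signal + 16) minus the mean over the 6 arrays; red is above the mean and blue below, and colours end at ±0.3. The disulfide enzymes are mostly red on the left and blue on the right, with the deposited scaling, and the degradation genes show no such split.

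The degradation genes lay on both sides of 0. Of 9, 6 were positive and 3 negative, with a median of 0.02, which was -0.00 after quantile normalization and 0.11 after median centring, and 1 lay lower and 1 higher without overlap, against 10.6% and 9.64% of all tested probe sets. Derl1, a membrane protein of the channel through which misfolded chains leave, gave 1641, 1588 and 1548 on noninduced arrays and 1899, 1804 and 1808 on those labelled induced. All 3 induced values were higher (log2 0.20, SE 0.0486, 95% interval 0.10 to 0.31, limma adjusted p = 0.107). Of its other probe sets, 2 were also higher without overlap (0.12 and 0.28) and 1 was at -0.08 with overlap. Among its relatives, Derl2 was at -0.05 with overlap, and its dimmer probe set was at -0.26, lower without overlap. Derl3, at means of 22.8 and 30.02, was too near the filter to read (95% interval -0.41 to 0.87).

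Edem1, a lectin that extracts misfolded glycoproteins for degradation, lay lower without overlap, with 239, 263 and 240.0 against 218, 209.7 and 222 (log2 -0.18, limma adjusted p = 0.340). Its paralog Edem2 was at 0.08 with overlap. Herpud1, a scaffold of the degradation complex, was read by 2 probe sets. The brighter gave 427, 277 and 343 against 354, 387 and 390.4 (log2 0.13, limma adjusted p = 0.673). Its dimmer probe set gave 196, 258 and 191 against 313, 309 and 338, higher without overlap. Its 0.55 in log2 (SE 0.107, limma adjusted p = 0.0614) was the highest of the 81 tested probe sets of the module, none of which passed. Noninduced replicate 2 was the lowest noninduced array in the brighter probe set and the highest in the dimmer one. Syvn1, the ubiquitin ligase Hrd1, was at -0.08, and its other probe set at -0.30 with 220.5, 207 and 257 against 178, 192 and 175. Sel1l, the partner of Syvn1, was at 0.01 with 5 probe sets from -0.08 to 0.24, and Os9, a lectin that delivers glycoproteins to them, at 0.02.

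The sensors and regulators were split. Xbp1 gave 1804, 1784 and 1755 on noninduced arrays and 1648, 1525 and 1619.9 on those labelled induced. All 3 induced values were lower (log2 -0.16, SE 0.0492, limma adjusted p = 0.190), and its 4 probe sets were all negative, from -0.17 to -0.03; the values do not separate spliced from unspliced transcript. Eif2ak3 (PERK) gave 159, 211 and 181 against 142, 142 and 157, the most negative log2 fold change of the 37 (-0.29, SE 0.11, limma adjusted p = 0.262). Its gap was narrow, and noninduced replicate 2 stood well above the rest. Atf6 gave 161, 192 and 157 against 184, 211 and 178 (log2 0.16) and Ern1 gave 191, 187 and 180.4 against 207, 212 and 183 (log2 0.10), both with overlap. Ppp1r15a, the phosphatase subunit that restarts translation after PERK, gave 99.9, 124 and 136 against 130.4, 104 and 96.5 (log2 -0.11). The median of these 5 genes, -0.11, turned with the single induced array of the first fluidics run, for which it was 0.11. Dropping noninduced replicate 3 gave -0.02 and dropping induced replicate 3 gave -0.03.

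The translocon and glycosylation subunits were all negative, with a median of -0.12 (-0.03 after median centring, when Ssr1 turned positive). Sec61b, a subunit of the translocation channel, gave 2259, 2275 and 2302 against 2036, 2248 and 1995, lower without overlap though induced replicate 2 came close to the noninduced arrays (log2 -0.12), and with overlap after quantile normalization. Ddost, a subunit of the oligosaccharyltransferase, gave 1656, 1970.0 and 1541 against 1482, 1549 and 1585 (log2 -0.15, with overlap). Ssr1, of the translocon-associated complex, was at -0.04, and its 4 probe sets ran from -0.11 to 0.15.

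The role groups were then compared within each array, since an array's scaling factor all but cancels in a difference between groups of genes on it. Each array's value for a role group is the median, over its genes, of the log2 value minus the gene's mean over the 6 arrays. For disulfide enzymes minus degradation genes it was -0.00, 0.05 and 0.18 on noninduced arrays 1 to 3 and -0.07, -0.15 and -0.02 on those labelled induced. For disulfide enzymes minus chaperones it was 0.03, 0.05 and 0.08 and then -0.04, -0.05 and -0.01. In both contrasts the groups of arrays did not overlap. For chaperones minus degradation genes they did, at -0.03, 0.01 and 0.10 and then -0.03, -0.10 and -0.01. These are descriptions of 3 arrays against 3, with no test.

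Genes of several probe sets showed how far a direction can be read. Of 23 genes with more than 1 tested probe set, 14 had all of them on one side of 0 and 9 had both signs: Hspa5, Hsp90b1, Hspa13, Dnajc3, Canx, Sel1l, Derl1, Ern1 and Ssr1. Over all 81 tested probe sets of the module, 55 were negative and 26 positive, with a median of -0.08.

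**Figure D4:**
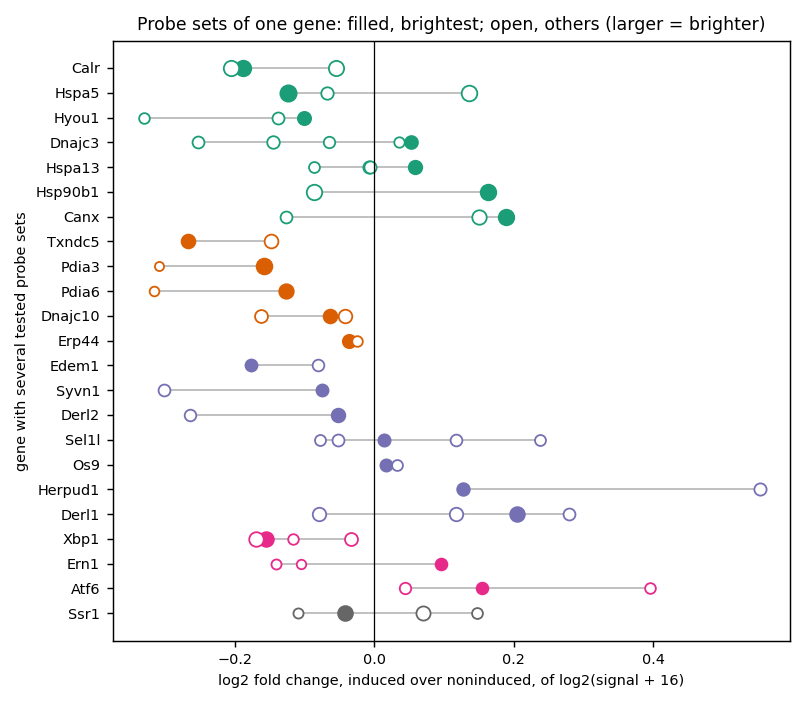
Log2 fold change (horizontal axis, labelled induced over noninduced, deposited scaling) of every tested probe set of the 23 genes that have more than 1; filled circles are the brightest probe set of a gene, open circles the others, larger circles are brighter, and colours are the roles. The 5 disulfide enzymes, Xbp1 and Calr have all circles left of 0 with this scaling, while Hspa5 has bright circles at -0.12 and 0.14 and Herpud1 reaches 0.55.

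The promoters were then set beside the expression differences. The 9 genes with a stress element had a median log2 fold change of -0.07, 5 negative and 4 positive. They ranged from Calr at -0.19 to Canx at 0.19, apart from Derl3 at 0.23, which is among the 4 positive and too near the filter to read. The 22 genes with a listed promoter and no exact match to this element had a median of -0.12, 17 negative and 5 positive. They include Herpud1 and Dnajb11, which carry the second form, and near matches were not searched for. Of all 37 genes of the table with the element, 13 were measured above the filter, and 4 of these were not members: Ero1b (0.06), Adcy3 (-0.08), Alg12 (-0.13) and Pan2 (-0.13). None of the 13 passed the test. Among genes with a listed promoter, all 5 without a CCACG had a negative value (Pdia3, Dnajc10, Xbp1, Eif2ak3 and Sec61b), as did 17 of the 26 with it. After median centring Dnajc10 was at 0.029.

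A wider list held 81 other genes of these processes and of stress regulation, not all of whose products lie in the compartment. Of the 81, 78 had a probe set with 1 gene. Of these 78, 3 rose past the test over all probe sets, against 0.12% of all tested probe sets, and 75 did not pass. The median of the 78 was -0.01. Ero1a, the oxidase that recharges the disulfide isomerases, rose from 325, 353 and 358 to 481, 461 and 485 (log2 0.44, SE 0.0692, limma adjusted p = 0.0227). Within an array, the log2 difference between Ero1a and the mean of the 7 disulfide enzymes shifted by 0.58, from between -1.82 and -1.71 to between -1.21 and -1.14. The groups of arrays did not overlap in this difference. Ero1a alone was already higher without overlap and all 7 enzymes were negative with the deposited scaling, so this separation adds no further evidence. Ddit3 and Chac1, a stress factor and a glutathione-degrading enzyme downstream of Atf4, rose by 0.57 and 0.62 in log2 (limma adjusted p = 0.0147 each). Ddit3 went from 233, 268 and 256 to 387, 360.0 and 398, and Chac1 from 379, 414 and 457 to 593, 643 and 706. Ero1a had 3 probe sets, Ddit3 2 and Chac1 1, and the values given are those of the brightest. With the fluidics run as a term, limma gave these 3 genes 0.46, 0.59 and 0.50 with adjusted p of 0.308, 0.243 and 0.316, so the calls were lost there. With 1 array left out, Ero1a missed the threshold each time (limma adjusted p 0.0569 to 0.113). In limma, Ddit3 passed in 2 of 6 such fits (adjusted p 0.0371 to 0.0859), those without noninduced replicate 1 or induced replicate 3, and Chac1 in 3 of 6 (0.0345 to 0.0677), these and the one without noninduced replicate 3. Trib3 was at 0.70 with its brightest probe set (limma adjusted p = 0.0537) and Atf4 at 0.09.

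Beyond these 3 genes the wider list had no call. Among 8 proline isomerases and collagen chaperones (4 positive, 4 negative), Ppib, which works on collagen, gave 4006, 4138 and 4062 against 3582, 3491 and 3552 (log2 -0.20, limma adjusted p = 0.0685), although its other probe set gave 0.08, while Fkbp14 was at -0.28 and Fkbp9 at 0.09. Among 9 genes of glycan quality control (4 positive, 5 negative), Erlec1 was at 0.28 and Mogs at -0.14. Among 16 other degradation genes (5 positive, 11 negative), Herpud2 was at 0.29 and Ube2g2 at -0.21. Among 20 other subunits of the translocon, oligosaccharyltransferase and signal peptidase (6 positive, 14 negative, median -0.05), 6 lay lower without overlap and 1 higher, against 10.6% and 9.64% of all tested probe sets, with Ostc at -0.20 and Sec63 at 0.16. In the list of other disulfide and oxidation genes, 7 of 14 were positive and 7 negative, and Tmx2 was lowest at -0.21. Of 11 other stress regulators 9 were positive, and Creb3 was lowest at -0.12.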

How the data were processed

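Total RNA was labelled with biotin, per the labels' protocols, and hybridised to 6 Affymetrix arrays. The authors deposited 1 signal intensity, on a linear scale, for each probe set. The submitters' processing notes name GCOS 1.1.1; scaling settings are not stated there, and the equal trimmed mean (2% off each end) was read from the values. The fluidics run was not read as such but inferred from the hybridisation times in the deposited instrument records, with a new run after a gap of over 30 minutes.

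The 64 control probe sets were left out. Of 45037 others, 34945 had 1 gene in the platform annotation. Those with a mean above the median (a signal of 22.6), 22518, were tested with limma 3.58.1 in R 4.3.3 on log2(value + 16), with a variance trend. The added 16 understates log2 changes of dim probe sets. The scripts were tested on simulated data. The number of arrays limits precision.

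Members, lists and tests were chosen with earlier results of these data known. All 37 genes are named; of the wider list, calls and each list's extremes, with Atf4 and Trib3. Alternatives were other scaling, filters, pseudocounts, variance models, blocks, left-out arrays, a looser threshold and averaged probe sets.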

Additional observations from a re-analysis of the deposited data

How the results depend on the processing

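The count of 45 probe sets past the threshold was 306 after median centring, 1 with no filter, 103 with the filter at the 75th percentile, 73 with a pseudocount of 64, 76 with robust moderation, 88 with array weights, 239 at an adjusted p of 0.10, and 0 without a variance trend (limma, 2818 at an unadjusted p under 0.05), with fluidics run as blocking factor (1918) and in the first run alone (1978); leaving out 1 array gave 1 to 58. The replicate number as a block gave 7 probe sets and 0 members, against 0 without it, and left the medians as they were; same-numbered arrays did not deviate together (correlations -0.062 to 0.013), so the number pairs nothing. Members past the threshold were 2 after median centring, 1 (Canx) at 0.10, and 0 in every other alternative.

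Members without overlap were 13 lower, or 1 after median centring (3.45% of all probe sets), 19 in the first run alone (27.8%) and 13 to 17 with 1 array left out, and 3 higher, or 8 after median centring (19.8%), 7 in the first run alone (27.0%) and 3 to 6 with 1 array left out (6 without noninduced replicate 1 or induced replicate 3, where 15.0% and 15.5% of all probe sets were higher). The blocks, weights and variance models do not bear on these counts. After median centring the median was 0.018 for all members, 0.018 for chaperones, 0.11 for degradation genes, -0.044 for disulfide enzymes, -0.015 for sensors and -0.030 for translocon subunits. With quantile normalization that of the chaperones was -0.092. With the run as a block or the first run alone it was -0.17 for disulfide enzymes and 0.11 for sensors, and the 75th percentile filter gave -0.030 for sensors. With 1 array left out the medians ran from -0.087 to -0.053 for all members, -0.10 to -0.053 for chaperones, -0.16 to -0.12 for disulfide enzymes, -0.04 to 0.06 for degradation genes, -0.18 to -0.021 for sensors and -0.16 to -0.054 for translocon subunits.

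Of 701 single-gene values under the alternatives, 665 kept direction and side of the threshold, 2 came to pass it and 34 turned sign, in 17 genes. Signs turned after median centring for Creld2 (0.023), Derl2 (0.042), Dnajb9 (0.018), Dnajc10 (0.029), Erp44 (0.056), Ssr1 (0.051) and Syvn1 (0.018); with quantile normalization for Os9 (-0.0016) and Sel1l (-0.0051); with averaged probe sets for Dnajc3 (-0.075), Edem2 (-0.41, through a dim probe set), Ern1 (-0.14), Hspa13 (-0.011), Pdia4 (0.17) and Ssr1 (0.016); and with the run as a block or the first run alone for Derl3 (-0.093), Hspa13 (-0.045), Os9 (-0.044) and Ppp1r15a (0.12). With 1 array left out, signs also turned for Derl2 (range -0.085 to 0.014), Derl3 (-0.055 to 0.45), Herpud1 (-0.022 to 0.28), Hspa13 (-0.029 to 0.12), Os9 (-0.055 to 0.11) and Sel1l (-0.056 to 0.064). The causes were not tested. Genes near a signal of 20, such as Derl3, are limited by their low signal over background.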
